A study of Mus musculus with 30 samples.

Results

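The 9 genes described here, Adipoq, Cfd, Lep, Retn, Plin1, Plin4, Cidec, Fabp4 and Pparg, are usual markers of fat cells. They were taken by symbol from a table of 56686 genes measured by total RNA sequencing of mouse lumbar dorsal root ganglia, and each matched 1 row. Male wild-type C57BL/6J mice had been given saline, 1 of the 4 drugs vincristine, doxorubicin, cyclophosphamide and dexamethasone, or their combination CVAD, and the ganglia L3 to L5 of both sides were dissected after perfusion with RNAlater. The 10 groups hold 3 libraries each: saline, CVAD, cyclophosphamide and dexamethasone on day 2, and the same with vincristine and doxorubicin on day 8. The labels do not say whether a library is 1 mouse or a pool, so the p-values measure only the spread between libraries, and replicate numbers follow the order of deposition. Label numbers start with 1 for day 2 and 2 for day 8, so the days and the label series cannot be told apart.

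White adipocytes store triglyceride in 1 large lipid droplet and release fatty acids from it when hormones call for fuel. The droplet is coated by perilipins, the cell secretes adiponectin, leptin and the complement protease adipsin, and the nuclear receptor PPARγ switches on most of these genes. Fat cells are not a cell type of the ganglion itself. They lie around it, in the epineurium of the nerve and the epidural fat of the vertebral canal.

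Values are in TPM, a unit for transcript abundance that divides reads by gene length and by the size of the library, so that levels can be compared between genes. The number of genes above 0 ran from 25342 to 27972 by library. Markers of the labelled tissue were abundant, with Prph of sensory neurons at a mean of 274 TPM and Apoe of satellite glia at 202.4. Genes of tissues next to the ganglion were also present. The summed TPM of 8 skeletal muscle genes ranged from 79.5 to 917 across libraries, led by Acta1 and Pvalb. Proprioceptive neurons of the ganglion also make Pvalb, and without it the sum ranged from 7.31 to 792. That of 8 neutrophil and marrow genes ranged from 61.3 to 350.3, led by Ngp and Ltf. The summed TPM of 6 spinal cord genes ranged from 1.22 to 69.2, with Gfap, which satellite glia can also make, above 0 in every library, and Aqp4 of astrocytes listed at 0 in all 30.

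Upstream sequences are shown for Adipoq, Cfd and Plin1, which varied together across libraries, and for Plin4, which followed them less. The 4 genes were picked for that pattern, no motif was common to the first 3, and no link between sequence and pattern was tested. They are the 250 bases before the annotated start of each gene, from RefSeq on GRCm38.p6, which is not the build of the table, and 8 of the 9 genes were matched. Adipoq lies at chr16:23146286-23146535 on the plus strand, Cfd at chr10:79890603-79890852 on the plus strand, Plin1 at chr7:79732777-79733026 on the minus strand and Plin4 at chr17:56109783-56110032 on the minus strand. Capitals mark motif matches on either strand, 5′ to 3′ along the gene.
Adipoq: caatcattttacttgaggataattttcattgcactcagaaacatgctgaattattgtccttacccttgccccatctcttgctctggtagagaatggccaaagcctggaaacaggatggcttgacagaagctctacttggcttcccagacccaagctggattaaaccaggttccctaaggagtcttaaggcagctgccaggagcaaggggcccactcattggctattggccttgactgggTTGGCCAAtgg
Cfd: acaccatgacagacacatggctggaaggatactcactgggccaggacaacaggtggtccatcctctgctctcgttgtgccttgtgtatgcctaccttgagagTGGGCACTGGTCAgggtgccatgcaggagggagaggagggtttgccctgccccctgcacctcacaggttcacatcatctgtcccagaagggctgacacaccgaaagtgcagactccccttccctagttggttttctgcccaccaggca
Plin1: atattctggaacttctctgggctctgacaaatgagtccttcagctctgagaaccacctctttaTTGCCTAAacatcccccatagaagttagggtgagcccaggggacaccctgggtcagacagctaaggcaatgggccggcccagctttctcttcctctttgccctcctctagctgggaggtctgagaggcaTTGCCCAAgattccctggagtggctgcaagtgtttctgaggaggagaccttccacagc
Plin4: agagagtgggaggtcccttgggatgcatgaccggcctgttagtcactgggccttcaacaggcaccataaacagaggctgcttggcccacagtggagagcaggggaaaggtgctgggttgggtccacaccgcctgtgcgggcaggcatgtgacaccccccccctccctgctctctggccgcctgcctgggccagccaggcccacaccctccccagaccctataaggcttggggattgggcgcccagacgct

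The motifs searched included AGGTCA, to which nuclear receptors bind, found in 14% of 32851 upstream windows of the same length. The direct repeat of AGGTCA with 1 base between its copies (DR1, bound by PPARγ with RXR), with up to 3 letters differing, was found in 21.3%. TTGCNNAA and TTNNNCAA, forms of the C/EBP site, were found in 9.56% and 33.3%. Every TTGCNNAA is also a TTNNNCAA on the opposite strand, so its matches always count under both. TATAAA was found in 12.4%. The window of Plin1 held TTGCCTAA from −187 to −180 and TTGCCCAA from −58 to −51 relative to the start. Both are therefore also matches of TTNNNCAA, the first on the minus strand only. In Adipoq the match was TTGGCCAA from −11 to −4. In Cfd it was TGGGCACTGGTCA from −148 to −136, which differs from the repeat at 3 letters. None of the 5 motifs occurred in the window of Plin4. A match is a run of letters and was not tested as a binding site.

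**Figure D1:**
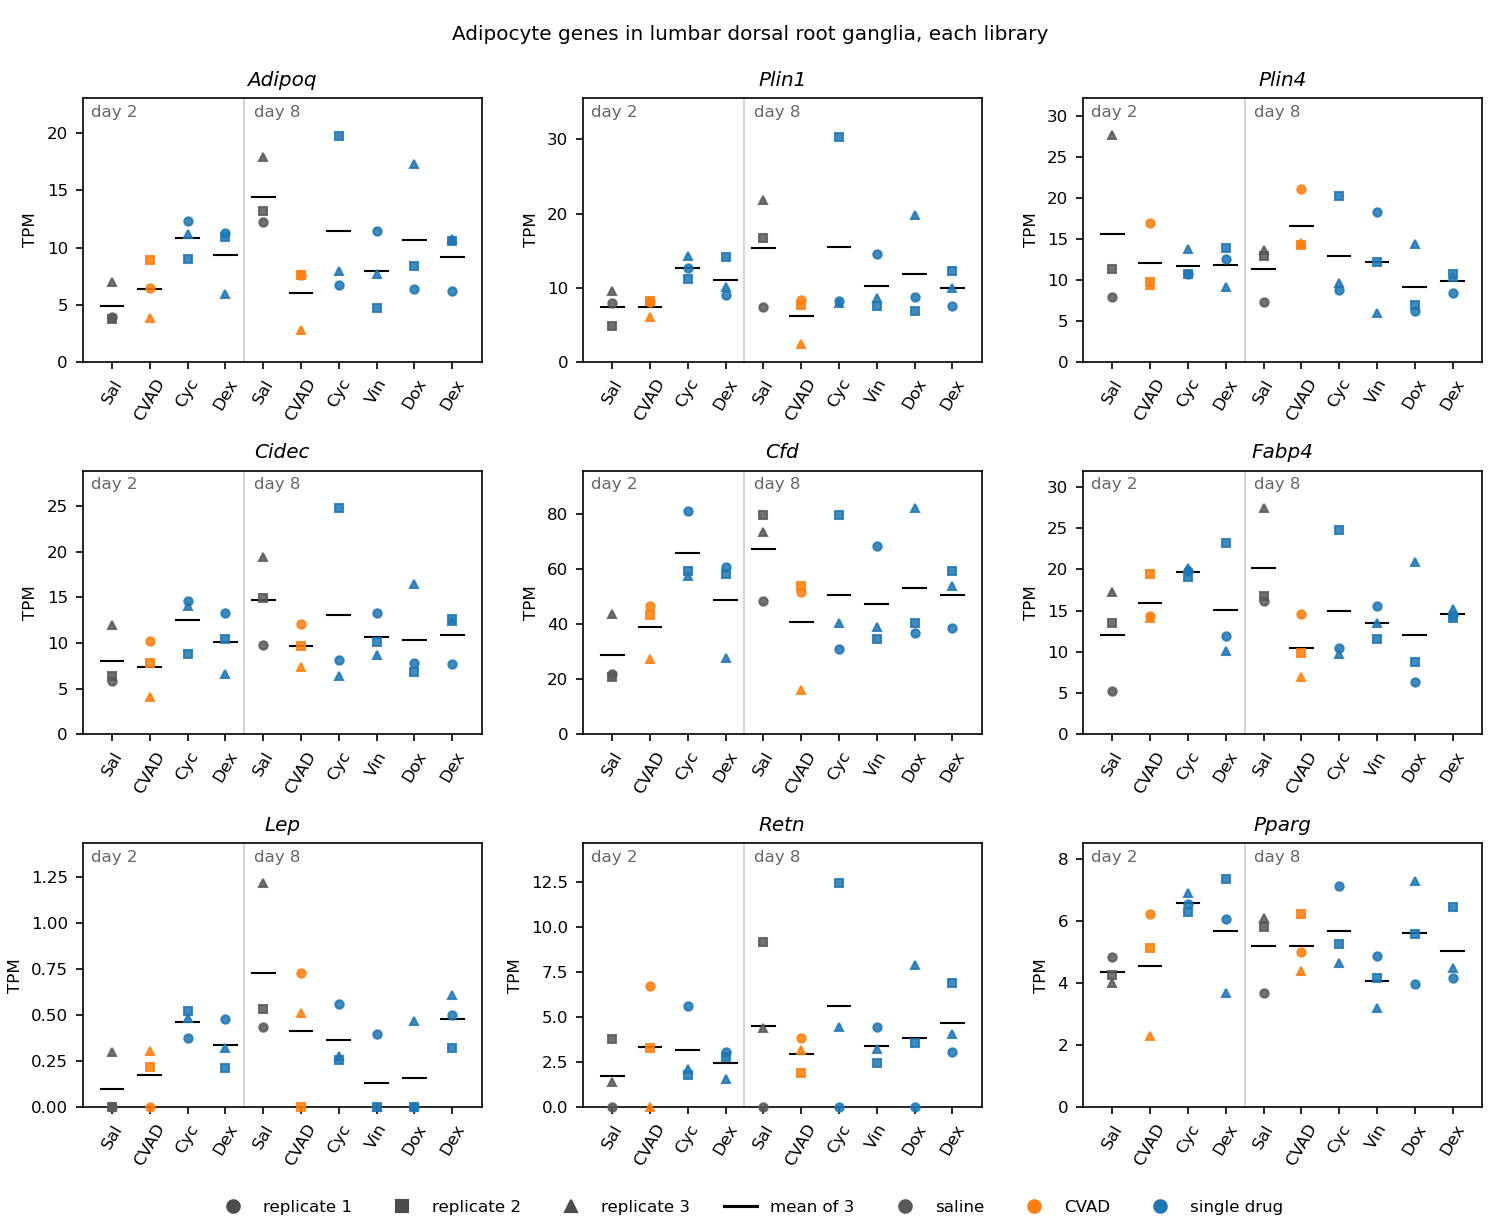
TPM (vertical axis, linear) of the 9 genes in each of the 30 libraries, by drug group along the horizontal axis with day 2 left and day 8 right of the grey line. Symbols give the replicate, colours the kind of treatment and bars the mean of 3. Adipoq, Plin1, Cidec and Retn reach their highest value in cyclophosphamide replicate 2 on day 8, and most groups overlap.

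Adipsin was the most abundant of the secreted factors. Cfd (ENSMUSG00000061780, chromosome 10), which encodes complement factor D, was at 49.1 ± 18.7 TPM (SD, n = 30), from 16.2 through a median of 47.4 to 82.0. Adipoq (ENSMUSG00000022878, chromosome 16), the gene of the hormone adiponectin, was at 9.13 ± 4.20 TPM, from 2.81 through 8.17 to 19.75, a 7.03-fold range. In each library Cfd stood 3.97 to 7.29 times above Adipoq, with a median of 5.58. Both genes were above 0 in every library and kept this order throughout.

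The remaining hormones were near the lower end of detection. Retn (ENSMUSG00000012705, chromosome 8), which encodes resistin, was at 3.56 ± 2.88 TPM and was listed at 0 in 5 of 30 libraries, 1 each in CVAD and saline on day 2 and cyclophosphamide, doxorubicin and saline on day 8. Its highest value was 12.4 TPM. Lep (ENSMUSG00000059201, chromosome 6), the gene of leptin, the satiety hormone made by fat cells in proportion to their lipid store, was at 0.334 ± 0.276 TPM and listed at 0 in 8 libraries. It passed 1 TPM only in saline replicate 3 of day 8, at 1.22. Lep therefore fell below the expression filter and was not tested, which leaves 8 tested members of 9.

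Among the droplet proteins the 3 genes had like means and unlike spreads. Plin4 (ENSMUSG00000002831, chromosome 17), a perilipin of small nascent droplets that muscle also makes, was at 12.3 ± 4.83 TPM. Cidec (ENSMUSG00000030278, chromosome 6), whose protein fuses droplets into the single large one, was at 10.8 ± 4.40. Plin1 (ENSMUSG00000030546, chromosome 7), the perilipin that guards the droplet against lipases, was at 10.7 ± 5.59 and had the widest span of the genes above 0 in all libraries, 2.38 to 30.3 TPM or 12.75-fold. The spans of Cidec and Plin4 were 5.99-fold and 4.598-fold.

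Fabp4 (ENSMUSG00000062515, chromosome 3), the fatty acid carrier of adipocytes that capillary endothelium and macrophages also express, was at 14.8 ± 5.41 TPM, from 5.22 to 27.4. Pparg (ENSMUSG00000000440, chromosome 6), the gene of PPARγ, was the steadiest, at 5.20 ± 1.31 TPM with a 3.23-fold span from 2.28 to 7.35. Its highest library was dexamethasone replicate 2 of day 2, and its lowest CVAD replicate 3 of the same day.

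Ordering the 10 groups by mean put saline of day 8 first for Adipoq, Cfd, Cidec, Fabp4 and Lep. Adipoq stepped down from 14.45 ± 3.06 TPM in saline of day 8 (SD, n = 3) to 11.5 ± 7.20 in cyclophosphamide of day 8, 10.85 ± 1.67 in cyclophosphamide of day 2, 10.7 ± 5.81 in doxorubicin, 9.38 ± 2.99 and 9.16 ± 2.54 in dexamethasone of days 2 and 8, 7.95 ± 3.35 in vincristine, 6.39 ± 2.52 and 6.03 ± 2.79 in CVAD of days 2 and 8, and 4.90 ± 1.83 in saline of day 2. Saline of the 2 days was thus at the top and the bottom of the order. All 9 neighbouring pairs in it had overlapping ranges, and the gap between the means was under the larger SD in each. The same held for 9 of 9 pairs in Cfd, Cidec, Plin4, Retn and Pparg, and 8 of 9 in Plin1, Fabp4 and Lep. Neighbours in a sorted order lie close by construction, so these counts do not show whether groups differ. The Adipoq ranges of saline on the 2 days did not overlap.

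Spread among libraries of the same group, which would make up about 69% of the variation if all group means were equal, accounted for 52.3% of the sum of squares of log2(TPM + 1) in Adipoq, 63.1% in Cfd, 63.9% in Plin1, 66.5% in Fabp4, 71.3% in Pparg, 74.0% in Cidec, 78.9% in Plin4 and 90.4% in Retn. In limma's F test for any difference among the 10 groups, adjusted by Benjamini-Hochberg over all tested genes, 0 of 8 members passed, as did 0% of the 25434 genes. Adipoq had the highest F of the members (2.35, adjusted p = 0.875 by limma) and the only unadjusted p under 0.05, and 5.61% of all genes had an unadjusted p under 0.05.

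The adipocyte genes varied together from library to library. Over the 30 libraries Adipoq correlated with Cfd at r = 0.93 (Spearman's rho 0.92), with Plin1 at 0.87 (rho 0.77), with Cidec at 0.83 (rho 0.82) and with Fabp4 at 0.71 (rho 0.72), on log2(TPM + 1). The largest adjusted permutation p of these 8 values was 7e-05, and 1e-05 was the smallest unadjusted p that the 100000 permutations can give. Without the 2 libraries farthest from the median of Adipoq the 4 values of r were 0.91, 0.81, 0.82 and 0.63. Correlations with Pparg (r = 0.53, rho 0.52, adjusted permutation p = 0.00479 and 0.00565) and Retn (r = 0.50, rho 0.53, adjusted permutation p = 0.00728 and 0.0052) were looser. Of all 28 pairs of tested members, 23 passed an adjusted permutation p of 0.05, with a median r of 0.54.

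The 5 pairs that missed the threshold were Plin4 with Adipoq, Plin1, Cfd and Pparg, and Fabp4 with Pparg. Plin4 correlated with Adipoq at r = 0.24 (rho 0.26, adjusted permutation p = 0.21 and 0.171) and with Cidec at r = 0.57 (rho 0.59, adjusted permutation p = 0.00191 and 0.00162). After the mean of its group was taken from each value, Plin4 correlated with Adipoq at 0.65 (adjusted permutation p = 0.00567, permuted within groups), and with Cidec at 0.82. Within groups a library high in Adipoq therefore tended to be high in Plin4 too. Whether the group means of these genes differ in pattern was not tested. Within groups lay 78.9% of the variation of Plin4, beside about 69% with equal group means. Adipoq and Cfd correlated at 0.93 on the same deviations, at 0.95 within day 2 and at 0.92 within day 8. With the 12 libraries of day 2 alone 12 of the 28 pairs passed, and with the 18 of day 8 alone 16 did.

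**Figure D2:**
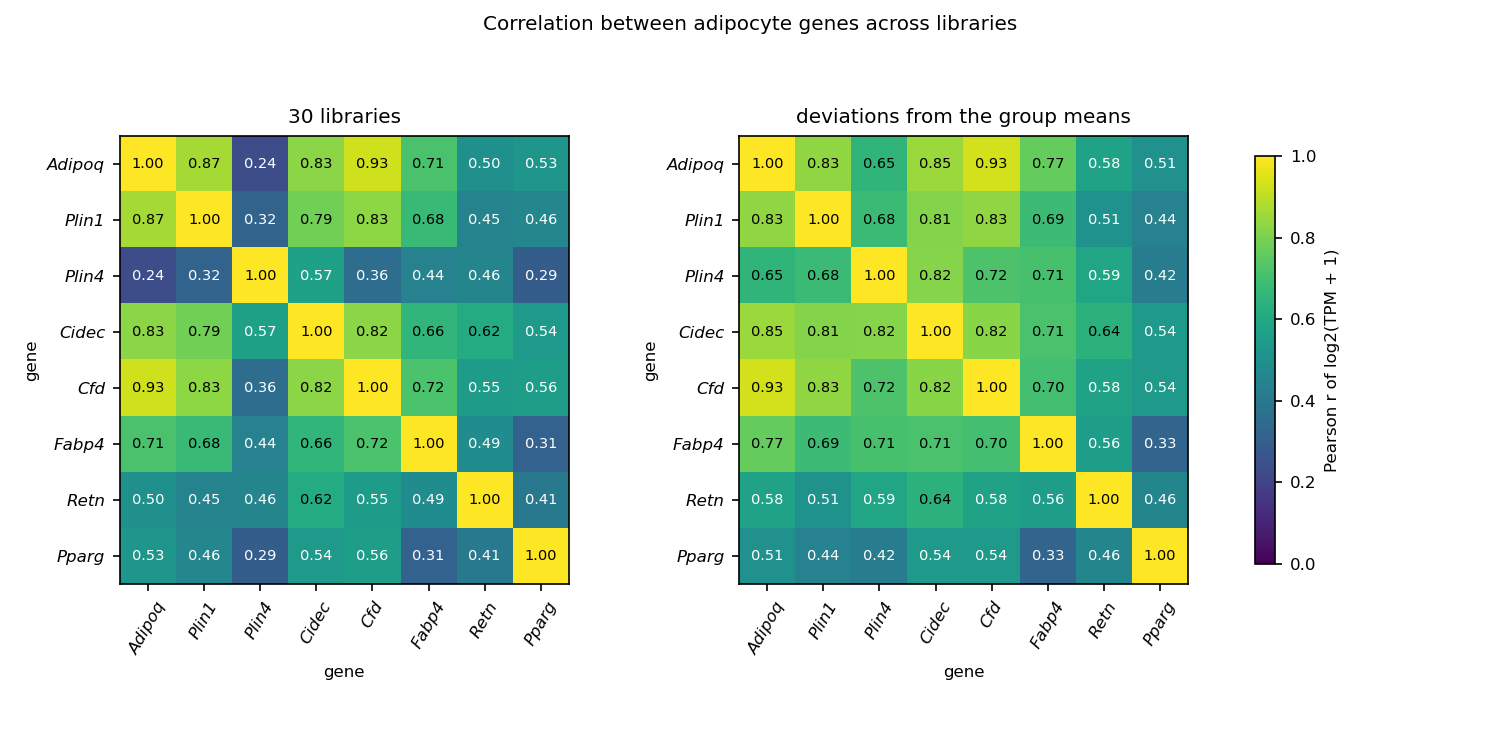
Pearson r of log2(TPM + 1) between the 8 tested genes (both axes), over the 30 libraries at left and on deviations from group means at right. Colour and number give r. Plin4 stands apart at left, with r = 0.24 to Adipoq, and joins the others at right, with r = 0.65.

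The genes outside the 9 whose pattern was most like that of Adipoq were genes of lipid handling. Ranked by r among the other 25433 tested genes, with predicted models left out, the first 10 included Ces1d, a carboxylesterase of lipid droplets, at 0.86, Pck1, the enzyme of glyceride-glycerol synthesis in fat, at 0.81, Lipe, hormone-sensitive lipase, at 0.78, Cyp2e1 at 0.77, Dgat2, which makes triglyceride, at 0.76, Hp (haptoglobin) at 0.74, Acvr1c, an activin receptor of adipocytes, at 0.74, Adrb3, the β3-adrenergic receptor of adipocytes, at 0.68, and Phex at 0.67. Cfd, Plin1, Cidec and Fabp4 ranked 1, 2, 4 and 12 in the same order. The median r of all genes with Adipoq was 0.05, and 0.47 marked the 99th percentile. These genes were picked by their r, which is given as a description. They ranged in mean level from 0.920 TPM (Acvr1c) to 24.1 TPM (Lipe).

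A wider list of 53 adipocyte genes was sorted by role. Of its 52 tested genes 10 correlated with Adipoq past an adjusted permutation p of 0.05, computed over the 52. These were Lipe, Dgat2, Acvr1c, Adrb3, Car3 (a carbonic anhydrase abundant in fat, r = 0.62), Lpl (lipoprotein lipase, 0.56), Aqp7 (the glycerol channel, 0.54), Thrsp (0.52), Cd36 (a fatty acid receptor, 0.48) and Cebpa (a partner of PPARγ in fat cell differentiation, 0.47). The largest of their adjusted permutation p-values was 0.042. With Spearman's rho 8 passed, on deviations from group means 9, within day 2 only Lipe and Dgat2, within day 8 7, and without the 2 farthest libraries 5.

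Apart from Car3, at 62.9 TPM, the most abundant genes of each role of that list missed the threshold. Among the enzymes of fatty acid synthesis, Scd1 was at a mean of 204.2 TPM with r = 0.34 and Acly at 185 TPM with r = 0.20. Of the droplet and lipolysis genes, Mgll was at 77.8 TPM with r = 0.15 and Plin2, a perilipin made in most cells, at 54.8 TPM with r = 0.08. The uptake genes Trarg1 and Slc27a1 stood at 198 and 139 TPM with r = 0.20 and −0.21, and the transcription factor genes Srebf1 and Rxra at 85.4 and 40.8 TPM with r = 0.30 and −0.09. Nnat, at 63.9 TPM, had r = −0.19. Each of these 9 genes exceeded the mean of Cidec, Plin1 and Adipoq.

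Markers of brown fat differed widely in level. Dio2 averaged 9.22 TPM, and Cox8b averaged 6.37 TPM and was listed at 0 in 14 libraries. Ucp1, the uncoupling protein that makes heat in brown adipocytes, averaged 1.28 TPM and was listed at 0 in 13 libraries, with a highest value of 14.6 TPM in vincristine of day 8. Cidea, a droplet protein of brown and beige fat, averaged 4.24 TPM. Elovl3 was listed at 0 in 29 libraries and was not tested. In correlation with Adipoq Ucp1 had r = 0.24 and Cidea r = 0.18 (adjusted permutation p = 0.421 and 0.496). Ppargc1a and Prdm16, the most abundant of these markers, were at 22.07 and 22.02 TPM with r = 0.07 and −0.24.

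**Figure D3:**
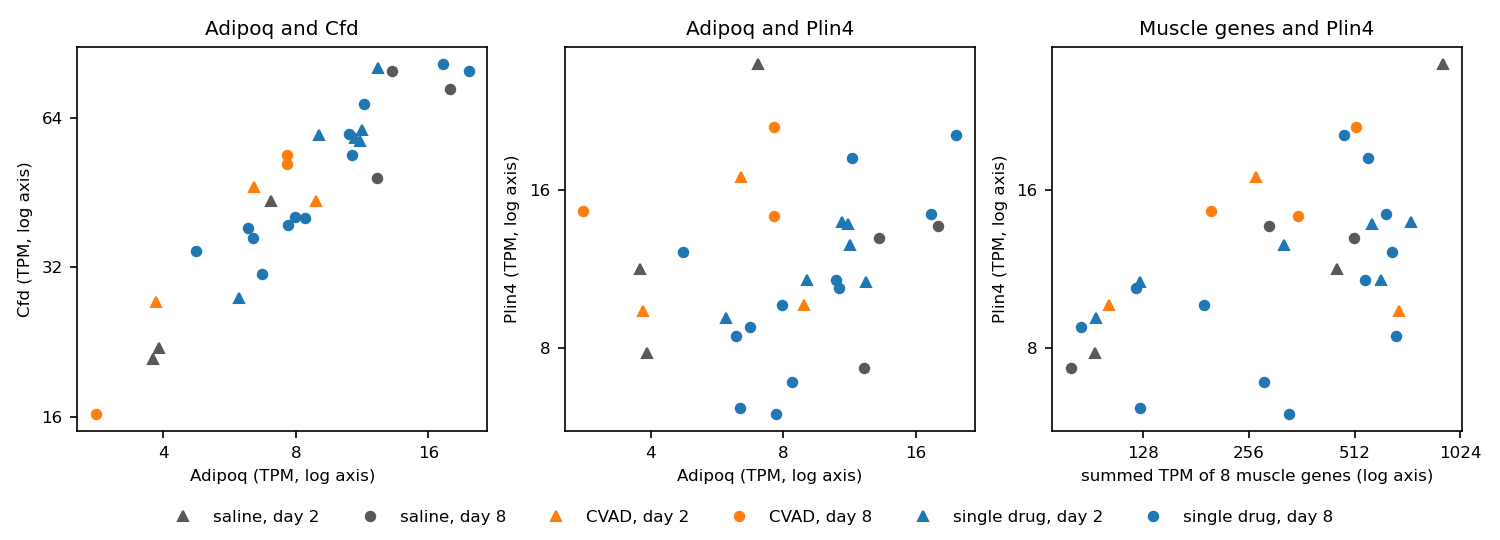
Each point is 1 of the 30 libraries, in TPM on log axes with base 2, with colour for treatment and symbol for day. Cfd rises with Adipoq along a single line (r = 0.93 on log2(TPM + 1)), Plin4 scatters against Adipoq (r = 0.24), and Plin4 against the summed TPM of 8 muscle genes has r = 0.54.

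The members were also set against the summed TPM of 12 lists for other cell types, 96 relations in all. Plin4 with skeletal muscle had r = 0.54 (rho 0.49, adjusted permutation p = 0.0641 and 0.233), and r = 0.63 on deviations from group means. Without Pvalb in the sum r was 0.53 and rho 0.50 (unadjusted permutation p = 0.00251 and 0.00566). Fabp4 with mural cell genes, led by Rgs5, had r = 0.60 and was the 1 relation that passed (adjusted permutation p = 0.0394, rho 0.47 with 0.233, and r = 0.55 with 0.133 without the 2 farthest libraries). Adipoq with the neutrophil and marrow sum had r = 0.55 (rho 0.48, adjusted permutation p = 0.0641 and 0.233). With fibroblast and progenitor genes, led by Dcn, Adipoq had r = 0.03, and with sensory neuron genes 0.19. The genes most like Plin4, ranked after its values were seen, included the muscle genes Abra, Phka1, Myom1 and Myom2 and the insulin-responsive glucose transporter Slc2a4, at r = 0.61 to 0.63, and Mlxipl and Cyp2e1 at 0.64 and 0.63.

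Libraries differed in how many members they were extreme for. Cyclophosphamide replicate 2 of day 8 was among the 5 highest libraries for 7 of the 8 tested members, as was doxorubicin replicate 3 of day 8. Saline replicates 2 and 3 of day 8 were among the 5 highest for 5 members each. At the other end, CVAD replicate 3 and saline replicate 1 of day 2 were among the 5 lowest for 6 members each, and saline replicate 2 of day 2, CVAD replicate 3, doxorubicin replicate 1 and saline replicate 1 of day 8 for 4 each. The summed TPM of the 9 genes ran from 57.6 to 217.5, with a median of 113. In these bulk libraries the number of fat cells, the RNA per fat cell and RNA from other cells that make some of these genes cannot be told apart.

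Saline ganglia of day 8 were compared with those of day 2 first, since every drug is read against them. Adipoq was at 12.2, 13.2 and 17.9 TPM on day 8 and at 3.91, 3.78 and 7.01 on day 2. Cfd was at 48.5, 79.7 and 73.2 TPM on day 8 and at 21.96, 20.9 and 43.5 on day 2. For both genes all day 8 values lay above all day 2 values. The log2 fold change was 1.41 ± 0.40 (SE) for Adipoq, a 2.95-fold ratio of means, and 1.24 ± 0.42 for Cfd, and neither passed in limma (adjusted p = 0.443 and 0.527).

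In the same comparison Cidec (log2 fold change 0.80 ± 0.40), Plin1 (0.87 ± 0.45), Fabp4 (0.80 ± 0.39), Retn (0.76 ± 0.88) and Pparg (0.19 ± 0.26) had higher means on day 8 and overlapping groups. Plin4 went the other way, at 7.34, 12.9 and 13.6 TPM on day 8 and 7.85, 11.3 and 27.6 on day 2 (−0.29 ± 0.39). Thus 7 of 8 members were higher, where 34.5% of all genes were lower, counted here and below by the sign of the log2 fold change, and 0 of 8 passed, where limma called 0.00393% of the 25434 genes. At an unadjusted p under 0.05 there were 2 members, beside 6.93% of all genes. Non-overlapping groups with higher values were seen in 2 of 8 members and in 11.2% of all genes. The neutrophil and marrow sum was at 208 to 350.3 TPM on day 8 and 89.1 to 152 on day 2, and with this sum as a term in the model Adipoq differed by 0.64 ± 0.45. This sum separates the saline groups of the 2 days completely, and its part in the result was not tested.

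On day 8 CVAD, a regimen used against lymphoid cancers, was compared with saline. Adipoq was at 7.64, 7.63 and 2.81 TPM in CVAD and at 12.2, 13.2 and 17.9 in saline, with no overlap. Fabp4 was at 14.5, 9.89 and 6.91 TPM in CVAD and at 16.1, 16.8 and 27.4 in saline, again with no overlap. The carrier and the hormone thus had lower values in every CVAD library. The log2 fold changes were −1.21 ± 0.40 for Adipoq (0.417 times the saline mean, limma unadjusted p = 0.00553, adjusted p = 0.537) and −0.90 ± 0.39 for Fabp4 (adjusted p = 0.772).

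Plin1 was at 8.34, 7.63 and 2.38 TPM in CVAD and at 7.38, 16.6 and 21.8 in saline, where replicate 1 of saline lay inside the CVAD range. Cfd was at 51.6, 53.9 and 16.2 TPM in CVAD and at 48.5, 79.7 and 73.2 in saline. For Cidec the values were 12.1, 9.67 and 7.38 TPM in CVAD and 9.74, 14.98 and 19.4 in saline. These 3 genes overlapped between the groups, with log2 fold changes of −1.21 ± 0.45, −0.86 ± 0.42 and −0.53 ± 0.40 and adjusted p-values by limma of 0.636, 0.838 and 0.940. CVAD replicate 3 had the lowest Plin1, Cfd and Adipoq of all 30 libraries. The same library had the lowest sums of Schwann cell, mural cell and neutrophil and marrow genes, at 1207, 192 and 61.3 TPM. For the other marker lists the lowest sum lay in other libraries. Without CVAD replicate 3 the log2 fold changes were −0.74 for Plin1, −0.31 for Cfd and −0.82 for Adipoq.

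Plin4 had the opposite direction in CVAD on day 8. It was at 21.03, 14.3 and 14.6 TPM in CVAD and at 7.34, 12.9 and 13.6 in saline, so that every CVAD library was above every saline library (log2 fold change 0.54 ± 0.39, adjusted p = 0.940 by limma, and 0.28 without saline replicate 1). The ratio of Plin4 to Plin1, formed after the values were seen, was 1.87 to 6.12 in CVAD and 0.625 to 0.995 in saline on day 8. It was 0.986 to 2.90 in saline and 1.19 to 2.11 in CVAD on day 2. The muscle sum was 199 to 517 TPM in CVAD and 79.5 to 510.2 in saline on day 8, all 8 muscle genes had higher means in CVAD with a median log2 fold change of 0.91, and with that sum as a term in the model the Plin4 difference was 0.40 ± 0.32, or 0.34 ± 0.32 with Pvalb left out of the sum. Pparg was level, at 5.21 ± 0.942 and 5.20 ± 1.32 TPM (log2 fold change 0.02, 95% interval −0.53 to 0.56).

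In all, 5 of 8 members were lower in CVAD on day 8, where 44.7% of all genes were, and 0 of 8 passed, where limma called 0% of the 25434 genes. An unadjusted p under 0.05 was reached by 3 members, Adipoq, Plin1 and Fabp4, and by 5.98% of all genes. Non-overlapping lower groups were seen in 2 of 8 members and 4.58% of all genes, and non-overlapping higher groups in 1 of 8 and 5.41%. The median log2 fold change was −0.69 over the members and 0.02 over all genes. In the wider list 30 of 52 genes were lower and 22 higher, with a median of −0.03.

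The neutrophil and marrow sum was lower in this comparison, as were 5 of the 8 members but not Plin4. It was 61.3 to 90.8 TPM in CVAD and 208 to 350.3 in saline, and all 8 of its genes were lower in every CVAD library than in every saline library, with a median log2 fold change of −1.87. None of the 8 was at 0 throughout. With that sum as a term in the model the log2 fold change was −0.11 ± 0.53 for Adipoq, −0.29 ± 0.64 for Plin1, 0.23 ± 0.51 for Fabp4 and 0.26 ± 0.57 for Cfd. The sum separates the groups completely here, and its part in the result was not tested.

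The single drugs of day 8 were read against the same 3 saline libraries, so their differences share those values. Adipoq was lower in every vincristine library (11.4, 4.74 and 7.69 TPM) and every dexamethasone library (6.23, 10.5 and 10.7) than in saline. In doxorubicin it was at 6.39, 8.39 and 17.3 TPM and in cyclophosphamide at 6.71, 19.8 and 7.95, and both groups overlapped with saline. The log2 fold changes of Adipoq were −0.84 ± 0.40 for vincristine, −0.62 ± 0.40 for dexamethasone, −0.49 ± 0.40 for doxorubicin and −0.44 ± 0.40 for cyclophosphamide, all with an adjusted p of 1 in limma. In doxorubicin and in cyclophosphamide 1 library each lay far above the other two.

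For Fabp4 the vincristine libraries were at 15.5, 11.6 and 13.5 TPM and the dexamethasone libraries at 14.4, 14.1 and 15.2, below the lowest saline value of 16.1. The doxorubicin libraries were at 6.34, 8.76 and 20.9 TPM (log2 fold change −0.82 ± 0.39, unadjusted p = 0.0461, adjusted p = 1 by limma). The dexamethasone values thus lay close together just under saline, and 2 of the 3 doxorubicin values lay below every saline value. Plin4 in doxorubicin was at 6.16, 6.90 and 14.4 TPM, its lowest group mean.

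Log2 fold changes below 0 were seen in 6 of 8 members with vincristine, 7 with doxorubicin, 7 with dexamethasone and 5 with cyclophosphamide. None passed in limma, where 0% of all genes were called for vincristine, doxorubicin and dexamethasone and 0.00786% for cyclophosphamide. An unadjusted p under 0.05 was reached by 1 member with vincristine (3.44% of all genes), 1 with doxorubicin (3.35%), 0 with dexamethasone (3.26%) and 0 with cyclophosphamide (5.76%). Non-overlapping lower groups were found in 2 members with vincristine, beside 2.72% of all genes, and in 2 with dexamethasone, beside 4.51%, in both cases Adipoq and Fabp4. Over all genes the share below 0 was 44.3% with vincristine, 55.1% with doxorubicin, 56.0% with dexamethasone and 61.0% with cyclophosphamide.

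**Figure D4:**
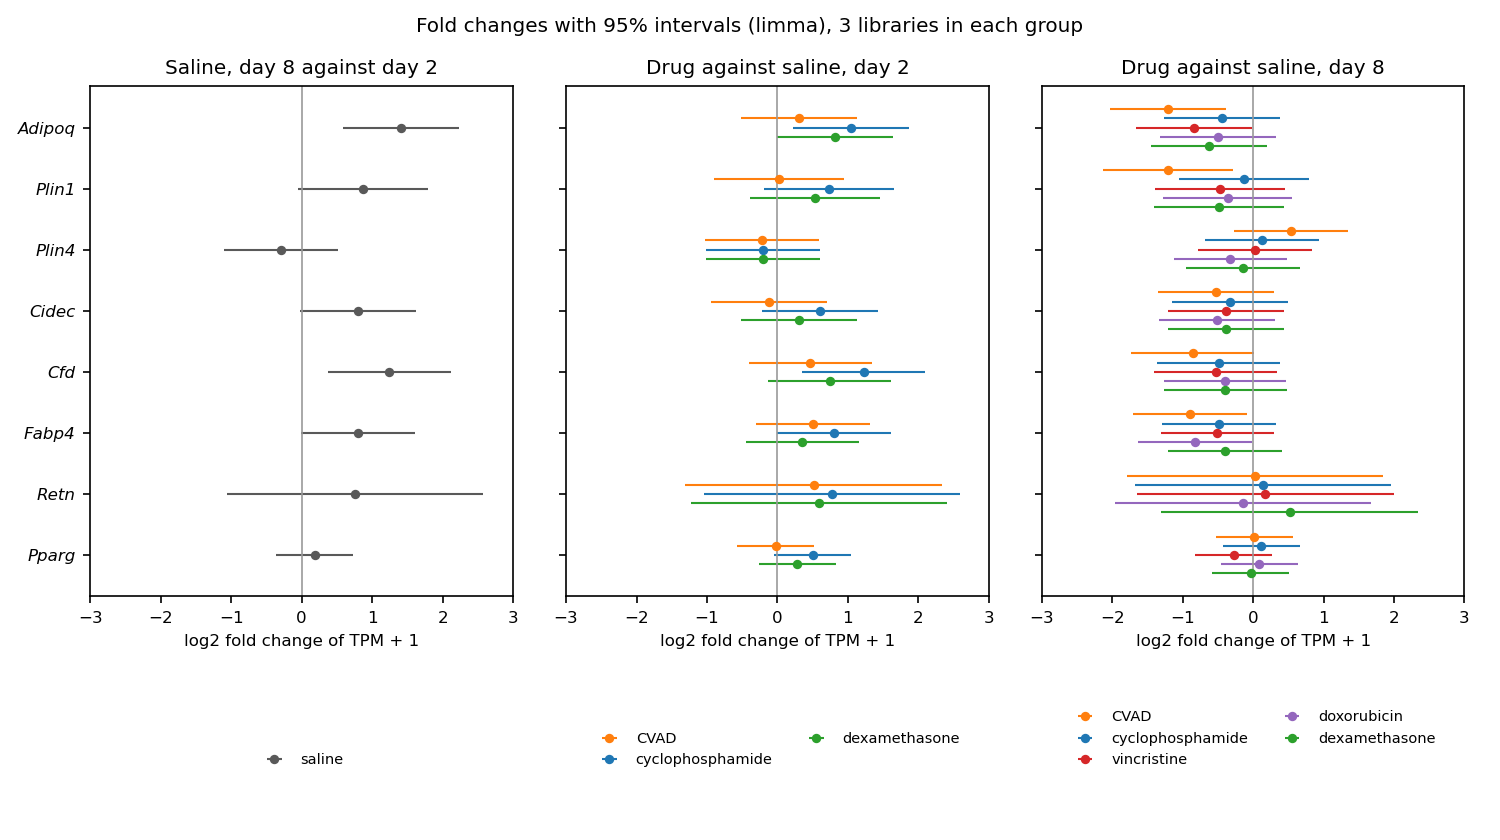
Log2 fold change of TPM + 1 (horizontal axis) with its 95% interval from limma for the 8 tested genes, for saline of day 8 against day 2 and for each drug against saline of the same day. Each group has 3 libraries. Most points lie right of 0 on day 2 and left of 0 on day 8, Plin4 in CVAD lies right of 0 on day 8 (0.54), and no gene passed after adjustment over all genes.

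On day 2 the direction was the reverse, with most members higher in the drug groups than in saline of that day. So were most of all genes, of which 33% to 34.3% were lower with each treatment. Cyclophosphamide gave the largest differences. Adipoq was at 12.3, 9.04 and 11.2 TPM in cyclophosphamide and at 3.91, 3.78 and 7.01 in saline, and Cfd at 80.8, 59.2 and 57.5 and at 21.96, 20.9 and 43.5. The groups did not overlap for either gene. Log2 fold changes were 1.04 ± 0.40 for Adipoq (adjusted p = 0.553 by limma) and 1.23 ± 0.42 for Cfd (adjusted p = 0.518). With a term for the libraries numbered 1 to 8 in the labels they were 0.24 ± 0.71 and 0.15 ± 0.73. All cyclophosphamide libraries of day 2 are among those 8 and no saline library is, so that only dexamethasone, with libraries on both sides, sets that term. The spinal cord sum was 2.64 to 11.5 TPM in cyclophosphamide and 8.46 to 69.2 in saline on day 2, and its part in the result was not tested.

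Fabp4 was at 19.8, 19.1 and 20.1 TPM in cyclophosphamide on day 2, the narrowest group of this gene (SD 0.508), and at 5.22, 13.5 and 17.3 in saline. Plin1 was at 12.6, 11.2 and 14.3 TPM against 7.96, 4.89 and 9.52, and Pparg at 6.57, 6.30 and 6.91 against 4.86, 4.25 and 3.99. All 3 genes were higher in every cyclophosphamide library, with log2 fold changes of 0.81 ± 0.39, 0.73 ± 0.45 and 0.50 ± 0.26. That of Fabp4 was 0.34 without saline replicate 1 and 0.13 ± 0.70 with the term for libraries 1 to 8. Plin4 was at 10.7, 10.8 and 13.8 TPM against 7.85, 11.3 and 27.6, with a lower mean (−0.21 ± 0.39).

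With cyclophosphamide on day 2, 7 of 8 members were higher, while 34.3% of all genes were lower, and 0 of 8 passed, while limma called 0.0118% of the 25434 genes. Non-overlapping higher groups were found in 5 of 8 members and in 8.52% of all genes, and an unadjusted p under 0.05 in 3 of 8 and in 7.51%. Dexamethasone on day 2 gave 7 of 8 higher, while 33.7% of all genes were lower, and 0 without overlap (7.03% of all genes). Adipoq was there at 11.3, 10.9 and 5.94 TPM (log2 fold change 0.81 ± 0.40, and 0.28 ± 0.55 with the term for libraries 1 to 8). CVAD on day 2 gave 5 of 8 higher, while 33% of all genes were lower, with Adipoq at 6.43, 8.89 and 3.85 TPM (0.31 ± 0.40). No member passed in these comparisons, where 0.00393% and 0.0432% of all genes were called, and 0 had an unadjusted p under 0.05, beside 5.37% and 8.19% of all genes. The 3 comparisons share the saline libraries of day 2.

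CVAD was then set against the single drugs directly, in comparisons that share the CVAD libraries. On day 2 all 8 members had a log2 fold change below 0 in CVAD against cyclophosphamide, where 47.2% of all genes did, though Plin4 and Retn had slightly higher mean TPM in CVAD (12.01 against 11.7 and 3.33 against 3.16), and 4 had groups without overlap, Adipoq, Plin1, Cfd and Pparg, where 2.78% of all genes did. The log2 fold change of Cfd, at 46.4, 43.4 and 27.2 TPM in CVAD against 80.8, 59.2 and 57.5, was −0.76 ± 0.42. None of the 8 passed (adjusted p = 1 by limma, 0.00393% of all genes called), and 0 had an unadjusted p under 0.05, beside 3.83% of all genes. Against dexamethasone on day 2, 7 of 8 log2 fold changes were below 0, where 45.9% of all genes were. Plin1 alone had no overlap, beside 3.56% of all genes, while 0 members had an unadjusted p under 0.05, beside 3.66%.

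On day 8 the difference from the single drugs was clearest in Plin1 and Plin4. Plin1 was lower in CVAD than in cyclophosphamide, whose libraries were at 8.18, 30.3 and 7.98 TPM, by a log2 fold change of −1.08 ± 0.45 (unadjusted p = 0.0232, adjusted p = 0.914 by limma), which was −0.49 without cyclophosphamide replicate 2. Plin4 was higher in CVAD than in doxorubicin by 0.86 ± 0.39 (unadjusted p = 0.0373, adjusted p = 1 by limma). Every CVAD library was also above every dexamethasone library for Plin4, with 8.43, 10.8 and 10.4 TPM in the latter (0.68 ± 0.39), where 6.78% of all genes had higher groups without overlap. No member passed against any of the 4 single drugs, with 0% of all genes called in each. Those 2 unadjusted p-values under 0.05 stand beside 5.34% of all genes for cyclophosphamide and 4.8% for doxorubicin, and there were 0 such members against vincristine (3.48%) and dexamethasone (4.94%).

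Whether a drug's difference from saline changed between the days was tested as an interaction. For Adipoq the difference on day 8 minus that on day 2 was −1.52 ± 0.56 for CVAD, −1.48 ± 0.56 for cyclophosphamide and −1.43 ± 0.56 for dexamethasone (adjusted p = 0.364, 0.406 and 0.932 by limma), and −0.72, −0.67 and −0.90 with the term for libraries 1 to 8. For Cfd it was −1.33 ± 0.60, −1.72 ± 0.60 and −1.13 ± 0.60, the first of which was −0.25 and the second −0.64 with that term, and for Fabp4 −1.41 ± 0.55, −1.29 ± 0.55 and −0.75 ± 0.55. These 3 contrasts all contain the 6 saline libraries, whose own difference between days was 1.41 for Adipoq and 1.24 for Cfd. Plin4 had 0.76 ± 0.55, 0.34 ± 0.55 and 0.06 ± 0.55. No member passed, where 0.0826%, 0% and 0% of all genes were called, and an unadjusted p under 0.05 was reached by 3, 3 and 1 of 8 members beside 8.63%, 9.55% and 4.92% of all genes.

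Without reference to saline, the drug groups sampled on both days had like means of Adipoq, in a comparison that was not tested. The mean of Adipoq was 6.39 TPM in CVAD on day 2 and 6.03 on day 8, 10.85 and 11.5 in cyclophosphamide and 9.38 and 9.16 in dexamethasone. For Cfd the means were 39.0 and 40.6 TPM in CVAD, 65.8 and 50.4 in cyclophosphamide and 48.8 and 50.6 in dexamethasone. The saline means of Cfd were 28.8 and 67.1 TPM. Other members were less alike between the days, with Fabp4 in CVAD at 15.96 ± 2.98 and 10.4 ± 3.84 TPM, Plin4 in CVAD at 12.01 ± 4.25 and 16.6 ± 3.82 and Retn in dexamethasone at 2.44 ± 0.795 and 4.65 ± 1.99 (SD, n = 3 each). CVAD of day 8, with Adipoq at 2.81 to 7.64 TPM, thus overlapped with saline of day 2, at 3.78 to 7.01.

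The genes of the wider list moved little in the comparisons with saline. In saline itself 33 of 52 were higher on day 8 with a median log2 fold change of 0.10, beside 0.07 for all genes, of which 34.5% were lower. All 13 synthesis genes were among the 33, at 0.09 to 0.43. In cyclophosphamide on day 2, 38 of 52 were higher with a median of 0.06, the same as for all genes, of which 34.3% were lower. Adrb3 was the largest of these, at a mean of 4.06 TPM against 1.28, with every library above saline (log2 fold change 1.17 ± 0.48, adjusted p = 0.588 by limma). In CVAD on day 8, where 44.7% of all genes were lower, 11 of the 13 synthesis genes were lower, at −0.37 to 0.01. So were 6 of 9 droplet genes, 4 of 8 uptake genes, 4 of 8 transcription factor genes and 2 of 6 thermogenic genes. In the list headed secreted 3 of 8 were lower. Not all genes of that list encode secreted proteins, among them the receptor gene Acvr1c and the carbonic anhydrase gene Car3. None of the 52 passed in any of the 18 comparisons, and the largest number with an unadjusted p under 0.05 was 6, in saline between the days, where 6.93% of all genes had one.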

How the data were processed

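Stranded libraries were made from 60 to 80 ng of RNA after ribosomal depletion, per the labels' protocols. FastQC 0.12.1, STAR 2.7.10b and StringTie 2.2.1 are named in the submitters' processing notes, with the builds mm10 and GRCm39 and no roles. The authors' deposited table gives TPM per gene, with column sums of 999910 to 999941. Depth is unknown, since TPM keeps none, and no counting error is given.

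Groups follow the treatment label. The 25434 genes tested reached 1 TPM in 3 or more libraries. On log2(TPM + 1), which understates changes of low genes, limma 3.58.1 (R 4.3.3) fitted 1 mean per group over the 30 libraries, moderating variances along a trend. The 18 comparisons had 2-sided p-values adjusted by Benjamini-Hochberg over all tested genes, with a threshold of 0.05. Correlations used 2-sided permutation tests with 100000 resamples, adjusted over 28 member pairs, 96 relations with marker sums and 52 with the wider list. On simulated data for CVAD against saline on day 8 (25434 genes), 83.6% of 67 genes changed 2-fold were recovered and 7 unchanged genes were called. The changed genes were drawn at random among the more abundant ones, so the rate is not that of the members.

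The text names all members, the 2 most abundant genes of a list and the 10 genes most like Adipoq. It gives a part of these. The members and lists were chosen with earlier results of these data known. Alternatives tried were a pseudocount of 0.1, no filter, a filter of 5 TPM, median-ratio scaling, a model for each day, library quality weights, protein-coding genes only, a term for libraries numbered 1 to 8, and the omission of each library. The terms for the muscle sum, with and without Pvalb, and the marrow sum and the correlations with the wider list were added after the data were seen. Figures were drawn with matplotlib 3.10.9.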

Additional observations from a re-analysis of the deposited data

How the results depend on the processing

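Under each alternative, 0 members passed in any comparison it covers in limma (14 of the 18 with a model for each day, all 18 otherwise), with a lowest adjusted p of 0.337 as reported, 0.110 with library quality weights and 0.198 when 1 library was left out. With 1 library of a group left out, the count stayed at 0 for the members and 0 for the wider list in each comparison. The depth of the libraries is unknown. With 3 libraries a group a simulated 1.5-fold change was recovered in 52.2% of 67 genes. Those genes were drawn at random, each with its own spread, so this rate does not give the size detectable in the members. Adipoq at 1.41 ± 0.40 between the saline groups did not pass (adjusted p = 0.443 by limma). Differences of that size or smaller in the members may not be detectable. No paired analysis was possible because the labels carry no replicate numbers that pair libraries across groups.

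With a term for the neutrophil and marrow sum several differences changed sign: Adipoq to 0.18 for cyclophosphamide on day 8, −0.15 for CVAD on day 2 and 0.0451 for the CVAD difference between days, Cfd to 0.26 for CVAD on day 8 and 0.26 for its difference between days, Fabp4 to 0.23 and Cidec to 0.39 for CVAD on day 8, and Retn to −0.0623 for saline between days. With a term for libraries 1 to 8 Adipoq turned to −0.49 for CVAD on day 2 and Pparg to −0.22 for cyclophosphamide on day 2. Pparg for CVAD on day 8, at 0.02, became −0.006 with median-ratio scaling, −0.0077 with the muscle sum, −0.0177 with that sum without Pvalb, and −0.17 to 0.13 with 1 library left out (below 0 without CVAD replicate 2 or saline replicate 1). The cause was not tested.

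Correlated pairs numbered 12 within day 2. Relations with marker sums numbered 0 by Spearman's rho, 0 on deviations from group means, 0 within day 2, 0 without the 2 farthest libraries and 3 within day 8. Genes of the wider list correlated with Adipoq numbered 2 within day 2 and 5 without the 2 farthest libraries. Pparg with macrophage genes became 0.0895 within day 2, and Adipoq with progenitor genes −0.0345 by Spearman's rho and −0.18 within day 8. The cause was not tested.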

Other observations

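Chosen after the values were seen, Hp, which encodes haptoglobin, was among the 10 genes most like Adipoq and is not on the adipocyte lists. Hp ranged from 11.7 to 49.5 TPM over the 30 libraries. On deviations from group means its correlation with Adipoq was 0.76, and that of Lipe was 0.88.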
